A study of Mus musculus with 45 samples.

Results

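The genes described here are 8 long noncoding RNAs, transcripts that are made and processed like messenger RNAs but are not known to be translated: *AI506816*, *Neat1*, *Malat1*, *Gas5*, *Mir155hg*, *Mir22hg*, *Snhg1* and *Snhg12*. They were chosen by name with earlier results of these data known, and the 3 gene-level tables of the series have rows for 42929 genes in common. A measured value also entered the choice, because *AI506816* had the second smallest p of all genes tested for LPS against PBS in adult microglia. Its values in that comparison are therefore given as a description with no test. The counts called among the other members and in the lists below are not tests of sets fixed before the data were seen. Of the 8 genes, 7 are among those in common, and *Snhg1* had no row in the brain tissue table. The filter on low counts was passed by 7 of 8 in the slice microglia table, 7 of 8 in the adult microglia table and 5 of 7 in the brain tissue table, and 5 of the 8 passed in all 3.

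Long noncoding RNAs work as RNA, and several of these genes are carriers of smaller RNAs. *Gas5*, *Snhg1* and *Snhg12* are small nucleolar RNA (snoRNA) hosts: snoRNAs cut from their introns guide the chemical modification of ribosomal RNA, while the spliced host RNA is short-lived and is degraded when ribosomes engage it. *Mir155hg* and *Mir22hg* are the primary transcripts of the microRNAs miR-155 and miR-22, and miR-155 is known as a microRNA of activated macrophages and microglia. *Neat1* is the RNA scaffold of paraspeckles, nuclear bodies that hold RNA-binding proteins, and its neighbour *Malat1* is a nuclear RNA that collects at splicing speckles and is among the most abundant noncoding RNAs of most tissues. *AI506816* has no role that is given here, though *Mir3096*, a gene annotated as a snoRNA, lies in an intron of it on the same strand. It is not counted among the snoRNA hosts below.

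The series holds 45 libraries of C57BL/6 mice in 7 groups. Slice microglia came from neonatal brain slices kept 2 weeks in culture and then given TNF at 50 ng/mL (11 libraries), GM-CSF at 20 ng/mL (9 libraries) or medium alone (9 libraries) for 24 h. Adult microglia came from mice of 10 to 15 weeks that received LPS at 1 mg/kg or PBS 24 h earlier (4 libraries each). Brain tissue, the cerebrum of mice of 10 to 15 weeks, came from mice that received LPS at 1 mg/kg 24 h earlier or no treatment (4 libraries each), so that its control group had no vehicle. The titles mark the adult microglia and brain tissue groups as WT, and those of the slice groups name no allele. Microglia in both sets were sorted as live cells with high CD11b and intermediate CD45, and every slice library pooled cells of more than 1 slice. By the paper's account the 4 libraries of each adult microglia and brain tissue group came from independent mice. The slice libraries came from 4 independent experiments by the same account, but the labels tie no slice library to an animal or an experiment. The main slice fit held no term for experiment, so libraries of 1 experiment counted as independent in it. The p-values measure the spread between libraries, which for slice microglia may in part be technical.

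Totals were 5973364 to 9165485 counts per library for slice microglia, 11391564 to 14216005 for adult microglia and 8199863 to 10368578 for brain tissue. Levels are given as CPM, the count of a gene scaled to the total of its library over the tested genes, adjusted by the TMM normalisation factor of that library. The summed level of 7 microglia markers was 16073 to 23634 CPM with medium, 11255 to 13110 with GM-CSF and 8386 to 11564 with TNF. It was 52896 to 59164 CPM with PBS and 36178 to 40899 with LPS in adult microglia, against 271 to 311 in untreated and 231 to 376 in LPS-treated brain tissue. The 7 neuron markers summed to at most 12.9 CPM in any sorted library and to at least 5877 CPM in brain tissue, so the labelled tissues carried the markers of their names. Other marker sums moved with the groups as well. The 5 neutrophil markers summed to 0.134 to 14 CPM with medium, 1.08 to 42.8 with GM-CSF and 2.11 to 113 with TNF, where library 6 was the highest, and to 35.7 to 75.5 with PBS against 1.61 to 7.80 with LPS in adult microglia, where *Retnlg* was at 0 in every LPS library. The 5 border macrophage markers summed to 9.58 to 14.6 CPM with PBS and 23.7 to 36 with LPS there (2 of 2 tested called higher), and the 6 astrocyte markers to 255 to 280 and 146 to 183. The 6 endothelial markers summed to 28.9 to 36.5 with PBS and 10.2 to 13.7 with LPS, and the oligodendrocyte and monocyte sums were also lower in all 4 LPS libraries. Slice microglia held far more of the border macrophage markers, at 288 to 697 CPM with medium, 301 to 862 with GM-CSF and 305 to 541 with TNF. With TNF 2 of 5 were called lower and none higher. With GM-CSF none of 5 was called by edgeR or DESeq2, and limma-voom called 1. In brain tissue 4 sums did not overlap between untreated and LPS libraries. Endothelial markers ran from 198 to 215 CPM untreated and 246 to 294 with LPS, with 3 of 6 called higher and 1 lower. The 6 oligodendrocyte markers ran from 6112 to 6688 and 4666 to 5530. Border macrophage markers ran from 4.28 to 7.04 and 8.58 to 11.8, with 2 of 3 tested called higher. Among them *Mrc1* was at 0 throughout, inside a stretch of rows at 0 described below, which gives no measure of its level. Neutrophil markers ran from 0.503 to 1.55 and 3.16 to 7.86, with 1 tested and called higher. The part of these shifts in the results was not tested.

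The mature microRNAs of the host transcripts are shown first because they are the products for which *Mir155hg* and *Mir22hg* are known. Capitals mark the seed, bases 2 to 8, which pairs with a target. Sequences are those of RefSeq on GRCm38.p6. The miR-155 pair lies on the plus strand at chr16:84714143-84714165 and chr16:84714182-84714202, and the miR-22 pair on the plus strand at chr11:75463734-75463755 and chr11:75463772-75463793. All 4 seeds differ.
mmu-miR-155-5p: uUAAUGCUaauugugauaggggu
mmu-miR-155-3p: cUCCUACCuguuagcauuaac
mmu-miR-22-5p: aGUUCUUCaguggcaagcuuua
mmu-miR-22-3p: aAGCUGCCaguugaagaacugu

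Start regions of the members that moved in at least 1 comparison are shown because snoRNA host RNAs are known to begin with a run of C and T, the terminal oligopyrimidine tract of genes of the translation apparatus. RefSeq start windows were found for 7 of the 8 members, with 2 starts for *Gas5*. Each line holds 20 bases before the RefSeq start and 30 from it on, 5′ to 3′ along the gene, with the longest run of C or T between 10 bases before and 20 bases after the start in capitals.
AI506816, chr5:23712638-23712687, minus strand: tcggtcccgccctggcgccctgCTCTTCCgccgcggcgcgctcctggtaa
Gas5 start 1, chr1:161034581-161034630, plus strand: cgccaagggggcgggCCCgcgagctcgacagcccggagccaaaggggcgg
Gas5 start 2, chr1:161035146-161035195, plus strand: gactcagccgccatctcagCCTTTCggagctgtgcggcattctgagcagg
Snhg1, chr19:8723467-8723516, plus strand: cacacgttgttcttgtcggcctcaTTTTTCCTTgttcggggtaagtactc
Snhg12, chr4:132308658-132308707, plus strand: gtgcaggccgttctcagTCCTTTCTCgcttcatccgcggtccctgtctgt
Mir22hg, chr11:75461519-75461568, plus strand: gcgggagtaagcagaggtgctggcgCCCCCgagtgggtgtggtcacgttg

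The longest run was 9 bases in *Snhg1* and in *Snhg12*, a length reached in 7.11% of 32851 RefSeq start windows. The *Snhg1* run began at base 5 counted from the start, and the *Snhg12* run 3 bases before the start. The longest run was 8 bases in *Mir155hg*, whose window is not shown (reached in 11.2% of windows), and 7 in *AI506816* (17.9%). It was 6 at the downstream *Gas5* start (28.7%), 5 in *Mir22hg* (46.4%), 4 in *Malat1* and 3 at the upstream *Gas5* start. Over the whole window of 250 bases before to 50 after the start, read on both strands, TGACG occurred 3 times in *Malat1*, 2 times at *Gas5* start 2, 2 times in *Snhg12* and 1 time in *Mir22hg*, and 20.8% of all windows held it. TATAAA was found in *Snhg1* alone among the members and in 13.6% of all windows. These matches describe the letters of the windows.

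*AI506816* (ENSMUSG00000105987) lies on the minus strand of chr5:23698296-23712667 in GRCm38 and is annotated as a processed transcript with 6 exon blocks that cover 4479 bases. Its level was 5.56 ± 0.739 CPM (SD, n = 4) in untreated brain tissue and 12.9 ± 1.04 CPM (n = 4) in LPS-treated brain tissue. Adult microglia held 60.8 ± 3.74 CPM with PBS (n = 4) and 407 ± 24.9 CPM with LPS (n = 4). Slice microglia held 68.9 ± 15.3 CPM with medium (n = 9), 74.1 ± 17.8 with TNF (n = 11) and 112 ± 20.8 with GM-CSF (n = 9). In the order of levels the brain tissue groups stood lowest and LPS-treated adult microglia highest, and the PBS, medium and TNF groups between them overlapped. The 3 tables were normalised separately, so levels across tables stand side by side without a test.

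**Figure D1:**
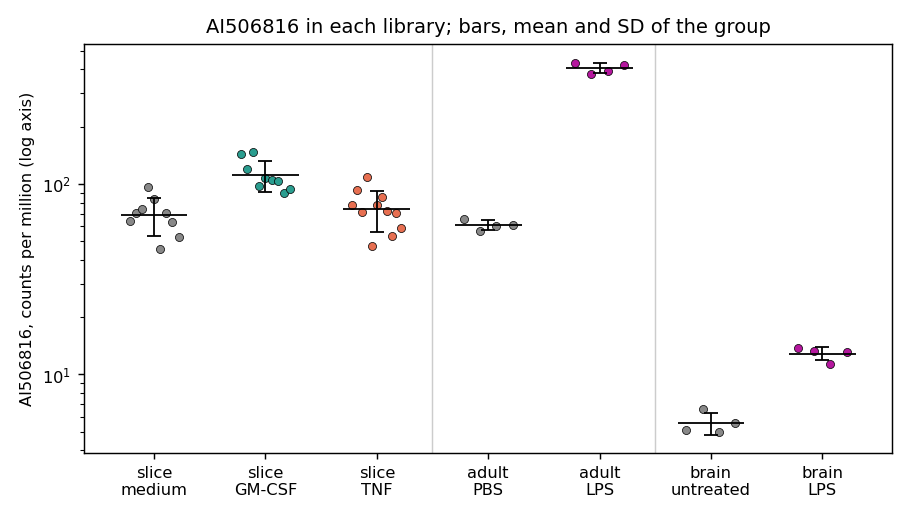
Level of AI506816 in CPM on a log axis for each of the 45 libraries, by group, with the mean and SD of each group. The LPS libraries of adult microglia lie between 379 and 434, the PBS libraries between 56.5 and 65.7, and the brain tissue libraries between 4.97 and 13.7.

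*AI506816* rose with GM-CSF. Its level ran from 45.4 through a median of 70.1 to 96.6 CPM with medium and from 89.6 through 104 to 147 CPM with GM-CSF. Of the 9 GM-CSF libraries, 7 lay above every medium library, and the 2 groups overlapped between 89.6 and 96.6 CPM. The log2 fold change was 0.70 (SE 0.14, 1.63-fold, edgeR quasi-likelihood adjusted p 0.000172). Within the libraries whose titles carry the codes 1A and 1B it was 0.74, and within 2A and 2B it was 0.68, both past the thresholds. With TNF the level ran from 47.0 through 72.6 to 109 CPM, over the range of the medium libraries, and the log2 fold change was 0.11 (95% interval −0.15 to 0.36, adjusted p 0.568). Set directly against GM-CSF, TNF libraries were lower by a log2 difference of −0.60 (SE 0.13, 1.51-fold, adjusted p 0.000432), with 9 of 11 TNF libraries below every GM-CSF library. This difference stood just past the limit of 1.5-fold, and within the codes 2A and 2B it was −0.57 (adjusted p 0.0118, over all alternatives 1.02e-05 to 0.0118), short of that limit.

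With LPS in adult microglia *AI506816* stood at 434, 379, 394 and 420 CPM, against 65.7, 56.5, 60.5 and 60.6 CPM with PBS. The 4 LPS libraries lay close together, and all stood above the 4 PBS libraries by several fold. The log2 fold change was 2.74 (SE 0.07, 6.69-fold), a value given with no test because it chose the gene. LPS-treated brain tissue offers a separate set of libraries. There the levels were 13.7, 13.3, 11.4 and 13.1 CPM (94 to 130 counts), against 5.13, 6.61, 4.97 and 5.54 CPM untreated (48 to 68 counts). All 4 LPS libraries were above every untreated one, as they were for 9.09% of all genes tested. *AI506816* rose by 1.21 on the log2 scale (SE 0.13, 2.31-fold, adjusted p 1.74e-05), at rank 70 by p of 15083 genes tested. In tissue, more cells that express a gene and more RNA per cell cannot be told apart. The microglia marker sums of the brain groups overlapped through LPS library 3 (231 CPM), while the other 3 LPS libraries (348, 352 and 376) stood above all untreated ones. The 7 markers did not move as 1: none was called higher and 2 were called lower, with a median log2 fold change of 0.27. Border macrophage and neutrophil marker sums were higher in all 4 LPS libraries, as given above. Their part in the *AI506816* difference was not tested.

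Both protein-coding genes within 50 kb of *AI506816* were tested in every table. *Pus7*, which encodes a pseudouridine synthase and ends 27981 bases away, rose with LPS in adult microglia (log2 1.25, SE 0.16, adjusted p 6.12e-05). In brain tissue its value was −0.08 (adjusted p 0.701). It was 0.56 with GM-CSF (adjusted p 0.0208), under the fold limit. *Srpk2*, a kinase of splicing factors 13679 bases away, had values of −0.02 with LPS in adult microglia (adjusted p 0.871), 0.05 in brain tissue, −0.38 with TNF and −0.24 with GM-CSF, none past the test.

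Across the members, called means an adjusted p under 0.05 and a fold over 1.5. With TNF 1 of 7 tested members was called higher and none lower, against 20.8% of all 11313 genes called (9.1% higher and 11.7% lower). With GM-CSF 1 of 7 was called higher and none lower, against 10.8% of all genes (4.84% and 5.96%). In adult microglia 5 of 7 were called higher with LPS, the chosen *AI506816* among them, and none lower, against 27.4% of 12987 genes (14.4% and 13%). In brain tissue 1 of 5 was called higher and none lower, against 3.18% of 15083 genes (2.63% and 0.55%). TNF against GM-CSF called 1 of 7 higher and 1 of 7 lower, against 16.2% (8.25% and 7.96%). The median log2 fold change of the tested members was −0.08 with TNF, −0.16 with GM-CSF, 1.00 with LPS in adult microglia and 0.04 with LPS in brain tissue, beside −0.03, −0.04, 0.01 and 0.00 over all genes tested. The TNF and GM-CSF comparisons share their 9 medium libraries. The shares of all genes called given here also stand beside the counts called in the lists of related genes below.

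**Figure D2:**
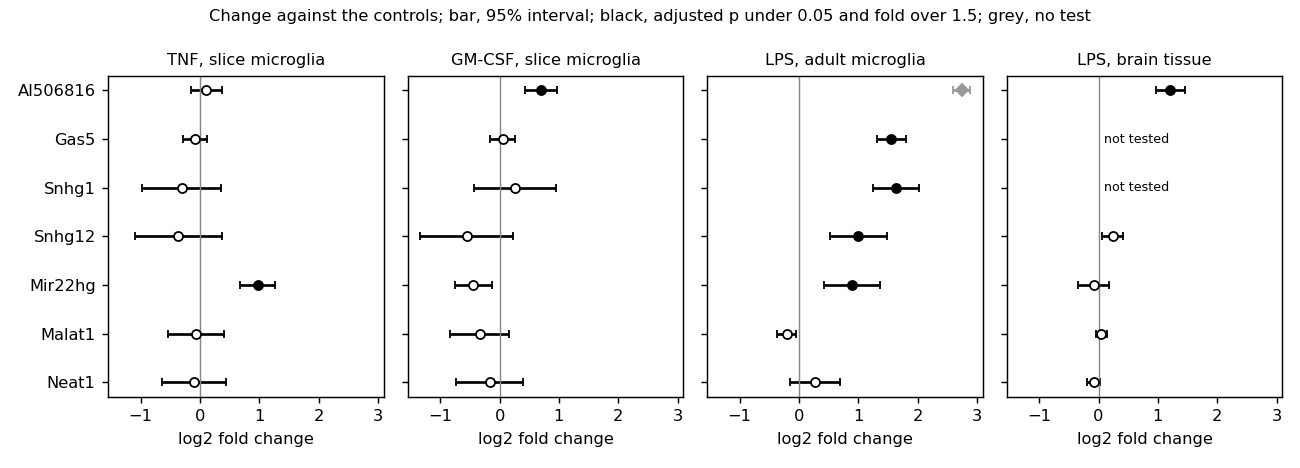
Log2 fold change of the 7 members that passed the filter in at least 1 table, with 95% intervals, in each of the 4 treatments against its controls. Black circles passed both thresholds, white circles did not, and the grey diamond is AI506816 in adult microglia, which has no test; LPS in adult microglia holds 4 black circles, and each other treatment holds 1.

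The snoRNA hosts rose with LPS in adult microglia. *Gas5* (ENSMUSG00000053332, chr1:161034422-161038539, plus strand, GRCm38), within which 10 snoRNA genes lie, stood at 266, 202, 301 and 300 CPM with LPS against 91.5, 103, 81.9 and 87.7 CPM with PBS. Every LPS library was above every PBS library, though LPS library 2 was the lowest of its group by a wide gap. The log2 fold change was 1.56 (SE 0.13, 2.94-fold, adjusted p 3.57e-06). *Snhg1* (ENSMUSG00000108414, chr19:8723475-8726443, plus strand), which holds 8 snoRNA genes, stood at 27.6, 20.5, 29.5 and 33.7 CPM with LPS against 8.40, 10.6, 5.96 and 10.8 CPM with PBS, and its groups did not overlap either. It rose by 1.63 on the log2 scale (SE 0.20, adjusted p 4.91e-05). *Snhg12* (ENSMUSG00000086290, chr4:132308623-132311024, plus strand), with 5 snoRNA genes, was the least abundant of the hosts, at 7.51, 4.54, 4.53 and 6.84 CPM with LPS against 2.58, 3.81, 2.98 and 2.38 CPM with PBS. It rose by 1.00 (SE 0.25, adjusted p 0.00492). The snoRNA genes are annotation entries, and *Snord80* in *Gas5* and *Snora16a* in *Snhg12* each have 2 overlapping entries, so distinct snoRNAs are fewer. All 4 LPS libraries were above every PBS library for each of the 3 hosts, as they were for 24.1% of all genes tested.

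In slice microglia the hosts did not pass the test with either cytokine. *Gas5* ran from 37.7 through 42.2 to 56.4 CPM with medium, from 35.6 through 45.6 to 56.4 CPM with GM-CSF and from 27.6 through 44.6 to 49.8 CPM with TNF. The 3 ranges covered one another, with log2 fold changes of 0.05 with GM-CSF (95% interval −0.15 to 0.26) and −0.08 with TNF (−0.28 to 0.11). *Snhg1* and *Snhg12* were near the limit of detection in this table, with 2 to 51 and 3 to 28 counts per library. For *Snhg1* the intervals were −0.97 to 0.36 with TNF and −0.43 to 0.95 with GM-CSF, and for *Snhg12* −1.10 to 0.37 and −1.33 to 0.22. These intervals hold a fall of 1.5-fold for *Snhg1* with TNF and for *Snhg12* with either cytokine, and a rise of that size for *Snhg1* with GM-CSF, sizes that these libraries could not tell from no change.

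Brain tissue gave a value for *Snhg12* alone among the hosts. It stood at 15.6, 15.9, 18.0 and 17.6 CPM with LPS against 13.5, 14.7, 13.6 and 15.1 CPM untreated. The groups did not overlap, as for 9.09% of all genes higher with LPS, but the log2 fold change was 0.24 (SE 0.09, adjusted p 0.114) and did not pass. *Gas5* was listed at 0 in all 8 brain libraries, which gives no measure of its level. Of 7458 genes with a mean of at least 10 CPM in both microglia tables and a row in the brain table, 136 were at 0 in every brain library. All 136 lay in 3 unbroken stretches of rows at 0: 388 rows over chr1:112467911-136555873, 342 rows over chr1:142455200-163730610 and 417 rows over chr2:3065573-22940266. *Gas5* lies in the second stretch. Widely expressed genes such as *Glul*, the glutamine synthetase of astrocytes, and *Actr3*, a subunit of the actin-nucleating Arp2/3 complex, were among those at 0; they were picked after their values were seen.

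Of 17 other snoRNA host genes, 11 were tested in adult microglia, and 6 of them were called higher and none lower with LPS, with a median log2 fold change of 0.62 beside 0.01 over all genes. *Zfas1* rose by 1.20 (SE 0.15, adjusted p 4.09e-05), *Snhg6* by 1.45 (SE 0.21, adjusted p 0.000147) and *Snhg5* by 1.40 (SE 0.21, adjusted p 0.000228). The plot of snoRNA hosts gives the other 3 as well. With TNF 1 of 8 tested was called higher, *Snhg6* (0.75, SE 0.19, adjusted p 0.00185), and with GM-CSF 0 of 8 was called by edgeR, DESeq2 or limma-voom, while 2 had an unadjusted p under 0.05 in edgeR. In brain tissue 1 of 12 was called, *Epb41l4aos* (0.85, adjusted p 0.0405), a call that limma-voom kept and DESeq2 did not, and *Zfas1* was 0.44 (adjusted p 0.00216), under the fold limit.

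**Figure D3:**
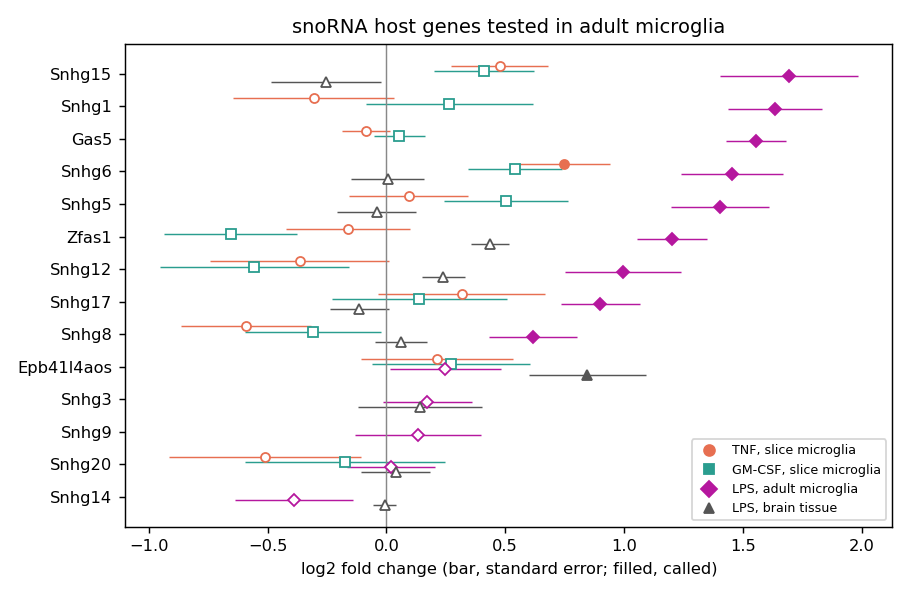
Log2 fold change with its standard error for Gas5, Snhg1, Snhg12 and the other listed snoRNA host genes tested in adult microglia, in each of the 4 treatments. Filled marks passed both thresholds. Purple diamonds, LPS in adult microglia, are filled for 9 of 14 genes, Gas5, Snhg1 and Snhg12 among them, while 1 gene is filled with TNF, 1 with LPS in brain tissue and none with GM-CSF.

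Counted beside the hosts were 13 proteins of snoRNA particles, which carry out the modification that snoRNAs guide. With LPS in adult microglia 8 of 13 were called higher and none lower, with a median of 0.72. *Nop56* rose by 1.27 (SE 0.11, adjusted p 3.06e-06), the methyltransferase *Fbl* by 0.87 (SE 0.08, adjusted p 6.21e-06) and *Nop58* by 1.18 (SE 0.11, adjusted p 6.41e-06). With GM-CSF 7 of 13 were called higher and none lower (median 0.78), led by the pseudouridine synthase *Dkc1* (1.29, SE 0.12, adjusted p 3.23e-10), in cells where the 3 member hosts and the 8 other tested hosts gave no call. With TNF 1 of 13 was called, *Nhp2* (0.87, adjusted p 9.24e-09), with a median of 0.41, and in brain tissue edgeR, DESeq2 and limma-voom each called none of 13 (median 0.02), of which 1 had an unadjusted p under 0.05 in edgeR. Of 10 factors of nonsense-mediated decay, the pathway that degrades host RNAs, *Smg5* was called higher with LPS in adult microglia (0.62), and none of the 10 was called with either cytokine or of 8 tested in brain tissue by edgeR, DESeq2 or limma-voom. In edgeR an unadjusted p was under 0.05 for 1 of them with TNF, 0 with GM-CSF and 0 in brain tissue.

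Around *Gas5*, none of the 4 or 5 tested protein-coding genes within 50 kb was called by edgeR in a microglia table, and all 5 fall in the stretch of zeros in the brain table. In edgeR an unadjusted p was under 0.05 for 1 of them with TNF, 2 with GM-CSF and 2 with LPS in adult microglia. Limma-voom called 1 with GM-CSF and DESeq2 called 0. *Zbtb37*, whose body overlaps *Gas5* on the other strand without sharing exonic bases, was −0.33 with LPS in adult microglia (adjusted p 0.018), under the fold limit. Near *Snhg1*, *Wdr74*, a ribosome assembly factor 9384 bases away, rose with LPS in adult microglia (0.91, SE 0.12, adjusted p 6.74e-05). *Slc3a2*, an amino acid transporter subunit that starts 106 bases away on the other strand, was 0.56 there (adjusted p 0.00124) and 0.41 with TNF (adjusted p 5.96e-08), both under the fold limit. Near *Snhg12*, *Rcc1*, the exchange factor of the GTPase Ran, rose with LPS (0.87, SE 0.11, adjusted p 3.55e-05), and *Gmeb1* fell with TNF (−0.86, adjusted p 0.00916).

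Among the microRNA hosts, *Mir22hg* (ENSMUSG00000085148, chr11:75461539-75466676, plus strand, GRCm38) was the member that TNF moved. Its level ran from 9.78 through a median of 21.4 to 27.9 CPM with medium and from 26.4 through 39.7 to 56.3 CPM with TNF. Of the 11 TNF libraries, 10 were above every medium library. *Mir22hg* rose by 0.97 on the log2 scale (SE 0.15, 1.96-fold, adjusted p 2.09e-06), by 0.93 within the codes 1A and 1B and by 1.01 within 2A and 2B. Without TNF library 6, which had the highest neutrophil marker sum, the value was 0.98. With GM-CSF the level ran from 8.67 through 16.0 to 19.4 CPM, and the value was −0.44 (SE 0.16, adjusted p 0.0348), under the fold limit. All 11 TNF libraries stood above all 9 GM-CSF libraries, as 5.3% of all genes did, with a log2 difference of 1.41 (SE 0.15, 2.66-fold, adjusted p 2.11e-09).

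*Mir22hg* was low in adult microglia, at 30 to 47 counts per library with PBS. The levels were 5.83, 3.77, 4.53 and 7.14 CPM with LPS against 3.37, 2.51, 2.42 and 3.17 CPM with PBS. The groups did not overlap, as for 24.1% of all genes tested there, higher with LPS. It rose by 0.89 (SE 0.24, 1.85-fold, adjusted p 0.00897). In brain tissue it stood at 19.7, 20.2, 26.5 and 15.3 CPM with LPS against 20.2, 22.2, 20.4 and 23.3 CPM untreated. There the LPS libraries spread to both sides of the untreated ones, and the value was −0.08 (SE 0.13, adjusted p 0.780). Its exons share 206 bases with those of *Tlcd2* on the same strand, so reads from the shared bases cannot be assigned to either gene from these tables. *Tlcd2* was 0.07 with TNF (adjusted p 0.826) and −0.11 with LPS in adult microglia (adjusted p 0.683).

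*Mir155hg* (ENSMUSG00000097418, chr16:84703167-84715245, plus strand, GRCm38) was too rare to pass the filter in any table. It had 0 counts in the 9 medium libraries, 2 counts in 1 of 9 GM-CSF libraries and 26 counts in 7 of 11 TNF libraries, where the highest held 8. Against a floor of 3 counts over the medium group, the TNF level per count sequenced was at least 7.29-fold higher. An exact two-sided permutation test of the mean CPM gave p = 0.0226 (0.0571 after Benjamini-Hochberg adjustment over the 4 treatments). In adult microglia LPS libraries held 3, 6, 6 and 6 counts and PBS libraries 2 counts in all, a ratio of 10.9 with a 95% counting interval of 2.66 to 95.6. The exact permutation p was 0.0286, the smallest that 4 against 4 libraries allow (adjusted 0.0571). In brain tissue 4 counts with LPS stood against 3 untreated (ratio 1.52, interval 0.256 to 10.3, exact permutation p = 0.486). No comparison of *Mir155hg* passed the adjusted threshold, and the counting intervals and floors cover counting error only.

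Of 16 reported targets of miR-155, 3 were called higher and 4 lower with TNF (median −0.44), beside 9.1% and 11.7% of all genes. *Maf*, a transcription factor of resting microglia, fell by 1.69 (SE 0.09, adjusted p 2.21e-17), while *Cebpb*, a transcription factor of inflammatory genes, rose by 1.58 (SE 0.08, adjusted p 1.2e-18). With GM-CSF 1 was called higher and 3 lower, beside 4.84% and 5.96% of all genes, and *Maf* fell by 0.66 (adjusted p 8.35e-07). With LPS in adult microglia 2 were called higher and 2 lower (median −0.18), beside 14.4% and 13% of all genes. There *Maf* fell by 1.20 (SE 0.06, adjusted p 1.15e-07) and *Cebpb* rose by 1.57 (SE 0.13, adjusted p 5.19e-06). In brain tissue 2 of 14 tested were called higher, beside 2.63% of all genes. They were *Cebpb* (0.73, adjusted p 0.0287) and *Spi1*, which encodes the myeloid factor PU.1 (0.89, adjusted p 0.0258), of which DESeq2 did not call *Cebpb*. Among 11 other microRNA host RNAs few were expressed: 2 were tested in slice microglia with no call against medium by edgeR, DESeq2 or limma-voom (1 had an unadjusted p under 0.05 with GM-CSF and 0 with TNF in edgeR), and of 3 in adult microglia *Mir17hg* rose (0.97) and *Mir99ahg* fell (−0.68) with LPS. Of 11 proteins that process microRNAs, *Ago1* (−0.66) and *Ddx17* (−0.65) fell with TNF, *Xpo5* rose with GM-CSF (0.64), and with LPS in adult microglia *Dgcr8* rose (0.66) and *Ago4* fell (−1.39).

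Protein-coding genes within 50 kb of the microRNA hosts included called genes in both microglia tables. *Mrpl39*, a mitochondrial ribosome protein gene 2331 bases from *Mir155hg*, rose with TNF (0.95, SE 0.09, adjusted p 1.17e-10) and was 0.12 with LPS in adult microglia. Of 5 tested genes near *Mir22hg*, *Scarf1*, a scavenger receptor gene, rose with TNF (2.69, SE 0.67, adjusted p 0.0014), while *Serpinf1* (−1.76, adjusted p 0.000193) and *Wdr81* (−0.68, adjusted p 0.043) fell. With LPS in adult microglia *Scarf1* fell (−1.12, SE 0.29, adjusted p 0.00598), and of 7 tested neighbours it was the one called.

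*Malat1* (ENSMUSG00000092341, chr19:5795690-5802672, minus strand, GRCm38) was the member with the highest level per kilobase of exon in all 7 groups. Its level was 431 ± 161 CPM with medium (n = 9), 410 ± 165 with TNF (n = 11) and 341 ± 121 with GM-CSF (n = 9). In adult microglia it stood at 4678, 4298, 4313 and 4730 CPM with PBS and at 3635, 3567, 4374 and 4001 CPM with LPS. The adult level stood far above the slice level, on tables counted and scaled apart, and 3 of the 4 LPS libraries lay below every PBS library. The log2 fold change with LPS was −0.21 (SE 0.08, 1.16-fold, adjusted p 0.0437), past the p threshold and under the fold limit. Leaving out 1 library in turn gave an adjusted p of 0.0148 to 0.118, past the threshold only without LPS library 3. In brain tissue *Malat1* stood at 588, 550, 641 and 596 CPM with LPS against 549, 589, 554 and 612 CPM untreated, with the groups overlapping (log2 0.04, SE 0.05, adjusted p 0.636). In slice microglia, in the fit without the title codes described next, the TNF value was −0.07 (95% interval −0.54 to 0.40) and with GM-CSF −0.34 (−0.83 to 0.16). An opposite-strand gene, *Gm37376*, shares 453 exonic bases with it, and without strand its reads cannot be told apart from those of *Malat1*.

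The spread of *Malat1* in slice microglia followed the codes in the library titles, whose meaning the labels do not give. With medium it ran from 228 to 331 CPM under 1A and 1B and from 424 to 668 under 2A and 2B. With GM-CSF the ranges were 183 to 248 and 359 to 499, and with TNF 232 to 390 and 351 to 717. The ranges were apart with medium and GM-CSF and met with TNF. Libraries coded 2A or 2B were higher by 0.90 on the log2 scale (SE 0.09, adjusted p 7.01e-08), a test added after the data were seen, at rank 15 of 11313 genes for the code term. By that contrast 1.28% of all genes were called, and the code term had an adjusted p under 0.05 for 14% of them. The share of counts in mitochondrial genes was 0.416 to 0.572% in the 14 libraries coded 1A or 1B and 0.564 to 1.02% in the 15 coded 2A or 2B, and its part in the *Malat1* difference was not tested. With the code as a term beside the treatment, *Malat1* was −0.37 with GM-CSF (SE 0.12, adjusted p 0.0146), −0.0068 with TNF (SE 0.11, adjusted p 0.968) and 0.36 for TNF against GM-CSF (SE 0.11, adjusted p 0.00960). The GM-CSF difference and that between the cytokines thus passed the p threshold under the fold limit in this fit, and neither did in the fit without the code. Within the codes the GM-CSF value was −0.33 in 1A and 1B (adjusted p 0.191) and −0.33 in 2A and 2B (adjusted p 0.217). For the other 6 tested members the adjusted p of the code term ranged from 0.0533 (*Mir22hg*) to 0.933 (*Snhg1*).

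**Figure D4:**
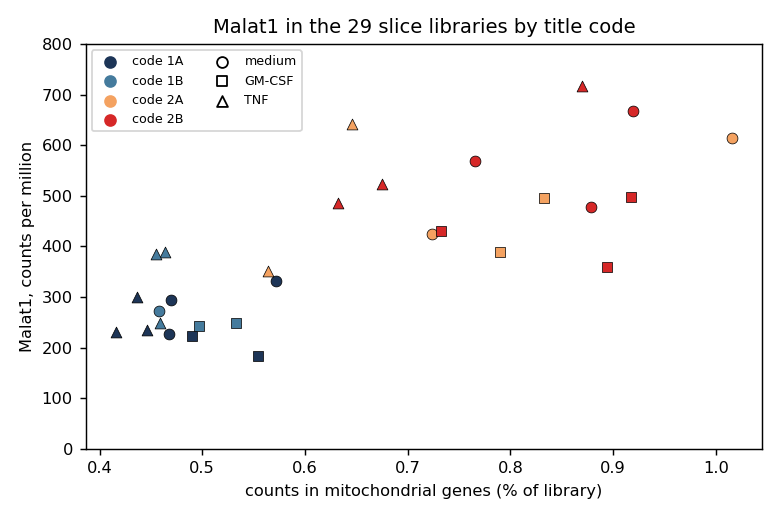
Level of Malat1 in CPM against the share of counts in mitochondrial genes, in percent, for the 29 slice libraries; colour gives the title code and shape the treatment. Libraries coded 1A or 1B lie at the lower left, up to 390 CPM, and those coded 2A or 2B at the upper right, from 351 up.

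*Neat1* (ENSMUSG00000092274, chr19:5824708-5845478, minus strand, GRCm38) was called in no comparison. It was rare in slice microglia, at 5.89 to 8.32 CPM with medium, 2.71 to 14.7 with GM-CSF and 2.21 to 9.90 with TNF. The spread was wider with the cytokines: the highest library was 1.41 times the lowest with medium, 5.43 times with GM-CSF and 4.47 times with TNF. The log2 fold changes were −0.11 with TNF (95% interval −0.64 to 0.43) and −0.16 with GM-CSF (−0.73 to 0.40). In adult microglia it stood at 70.3, 74, 76 and 75.6 CPM with PBS and at 72, 63.7, 86.7 and 135 CPM with LPS. The LPS libraries ran from below the lowest PBS library to far above the highest, and the value was 0.27 (SE 0.21, adjusted p 0.319). In brain tissue it stood at 170, 161, 145 and 149 CPM with LPS against 173, 149, 173 and 165 CPM untreated (−0.08, SE 0.06, adjusted p 0.437). Of 13 paraspeckle proteins, *Tardbp*, which encodes the RNA-binding protein TDP-43, was called higher with GM-CSF (0.59), and edgeR called none of 13 with TNF, with LPS in adult microglia or in brain tissue, where 3, 6 and 5 of them had an adjusted p and 4, 7 and 6 an unadjusted p under 0.05 at smaller folds. DESeq2 and limma-voom called none in those 3 comparisons either.

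**Figure D5:**
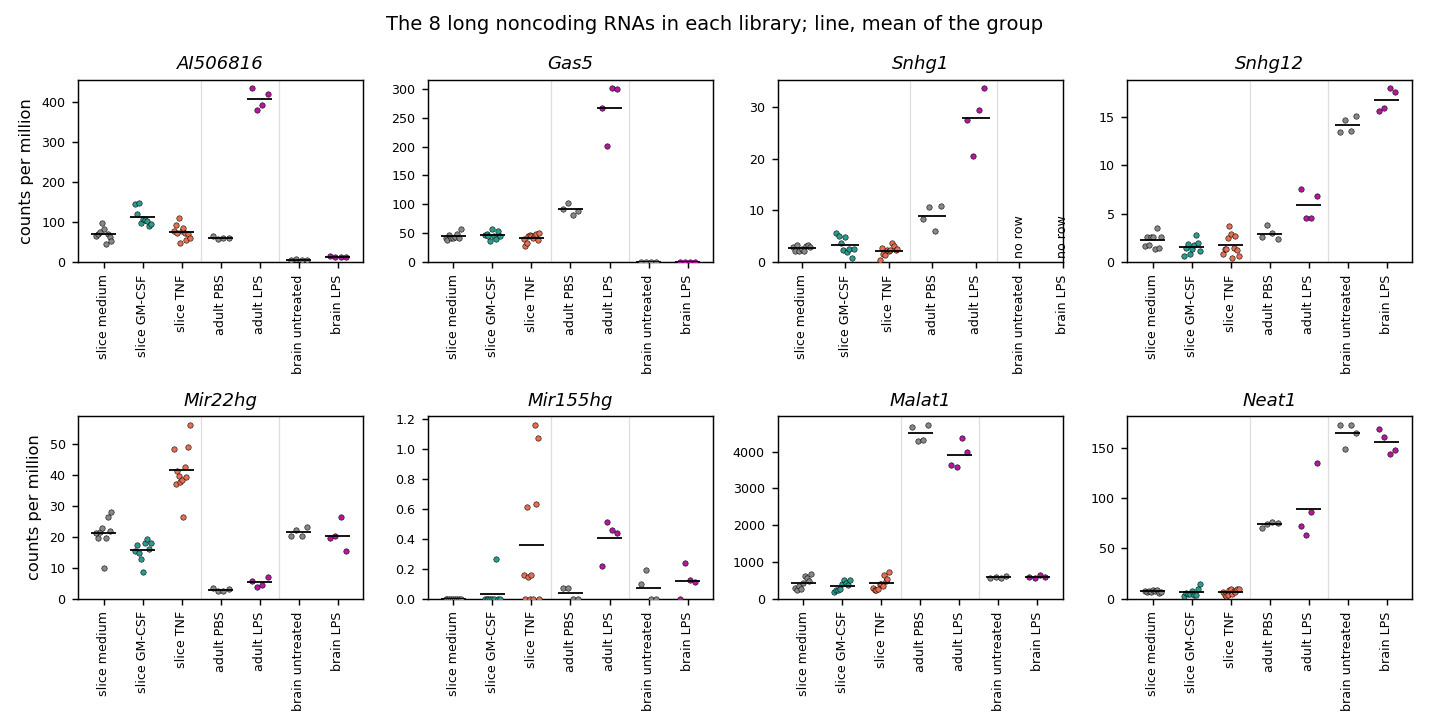
Level of each of the 8 long noncoding RNAs in every library, in CPM, with a line at the group mean and grey lines between the 3 tables. AI506816, Gas5, Snhg1 and Snhg12 stand higher with LPS than with PBS in adult microglia in all 4 libraries, Mir22hg stands highest with TNF within the slice table, and Mir155hg stays under 1.17.

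Per kilobase of annotated exon, the order of the members differed between the tables. The slice table holds counts and the adult microglia and brain tissue tables expected counts, so the orders stand side by side without a test. Annotated exons of *Snhg1* and *Snhg12* cover their whole gene spans (2969 and 2402 bases), so these lengths include introns of spliced forms. With medium *Malat1* (61.7 CPM per kb) was followed by *AI506816* (15.4), *Gas5* (11.8) and *Mir22hg* (11), and *Neat1* held 0.339. TNF put *Mir22hg* second at 21.6 CPM per kb. In adult microglia with PBS the order was *Malat1* (645), *Gas5* (24.2) and *AI506816* (13.6), and with LPS *AI506816* (90.8) passed *Gas5* (71.1). In untreated brain tissue *Malat1* (82.5) led *Mir22hg* (11.2), *Neat1* (7.96), *Snhg12* (5.92) and *AI506816* (1.24).

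The LPS effect was compared between adult microglia and brain tissue by an interaction term, which called 19.7% of 16676 genes (9.1% higher and 10.6% lower in microglia). Tissue, kit, sequencing run and kind of control (PBS for microglia, no treatment for brain tissue) coincide in it and cannot be told apart. For *Mir22hg* the microglia effect exceeded the tissue effect by 0.96 on the log2 scale (SE 0.26, adjusted p 0.00721). For *Snhg12* it exceeded it by 0.75 (SE 0.24, adjusted p 0.0195), a call that was lost without LPS microglia library 1 (0.61, adjusted p 0.0522) and with the replicate number as a block (0.74, adjusted p 0.0541), while its adjusted p ran from 0.00571 to 0.0541 over all alternatives. *Malat1* (−0.26, adjusted p 0.0652) and *Neat1* (0.35, adjusted p 0.305) did not pass. The value for *AI506816* was 1.52, with no test. *Gas5* and *Snhg1* have no brain value to compare. Of 13 other snoRNA hosts tested 5 were called higher in microglia and none lower, *Snhg6* (1.44, adjusted p 0.000335) and *Snhg5* (1.44, adjusted p 0.000557) among them.

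The genes whose pattern was most like that of a member were taken by Pearson's r of log2 CPM over all 45 libraries after centring each gene within its table, among the genes tested in all 3 tables. These r describe libraries that share treatment, depth and table. For *AI506816* they were *Pdia4* (r = 0.916), an endoplasmic reticulum protein disulfide isomerase gene, *Il4ra* (0.893), the interleukin-4 receptor alpha chain, and *Pdia6* (0.890). Within the slice table alone the r of *Pdia4* was 0.792, within adult microglia 0.987 and within brain tissue 0.834. For *Mir22hg* they were the ion channel gene *P2rx4* (0.893), the integrin gene *Itga5* (0.887) and *Mmp14* (0.886), with r of *P2rx4* at 0.926 in slice microglia, 0.932 in adult microglia and −0.531 in brain tissue. For *Malat1* they were *mt-Co1* (0.817), *Gng5* (0.749) and *mt-Nd4* (0.733), and r of *mt-Co1* was 0.901 in the slice table, −0.604 in adult microglia and −0.104 in brain tissue. *Neat1* (*Ttc14*, 0.619) and *Snhg12* (*Sult1a1*, 0.565) had no gene with r over 0.62. Between the members themselves r ran from −0.353 (*AI506816* and *Malat1*) to 0.528 (*Neat1* and *Malat1*).

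Of 18 other named long noncoding RNAs, 9 were tested in slice microglia and 11 in adult microglia. With TNF *Dubr* was called higher (0.68), and with GM-CSF edgeR, DESeq2 and limma-voom each called none of 9, and 0 had an unadjusted p under 0.05 in edgeR. With LPS in adult microglia 2 were called higher, *Pvt1* (0.94) and *Kcnq1ot1* (0.62), and 3 lower, *Trp53cor1* (−1.64) among them. Of 10 tested in brain tissue none was called by edgeR, DESeq2 or limma-voom, and in edgeR 2 had an adjusted p and 5 an unadjusted p under 0.05 at smaller folds. Immediate early genes, which cells switch on within minutes of a stimulus or of handling, were counted beside the members. The shares of all genes called were 20.8% with TNF, 10.8% with GM-CSF and 27.4% with LPS in adult microglia. With TNF 1 of 10 was called higher, *Junb* (0.69), and 4 lower, *Jun* (−0.69) and *Dusp1* (−1.45) among them. With GM-CSF 4 were called lower, *Atf3* (−0.87), *Zfp36* (−0.68) and *Fos* (−1.14) among them. With LPS in adult microglia 2 of 9 were called higher, *Junb* (0.74) and *Ier2* (1.90), and *Nr4a1* was lower (−1.21). EdgeR, DESeq2 and limma-voom each called none of 9 in brain tissue, where 0 had an unadjusted p under 0.05 in edgeR.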

How the data were processed

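Bulk RNA sequencing gave 3 gene tables. Slice microglia values are raw counts deposited by the authors (STAR 2.7.0a and featureCounts of Subread 1.6.4 in the submitters' processing notes, mm10). The adult microglia and brain tissue tables hold expected counts as deposited, rounded here to whole numbers, and no source read here names their aligner or counter. Microglia libraries were made with SMART-Seq v4 and Nextera XT, brain libraries with TruSeq. Rows naming no gene (92 in the brain table) were left out and held 0 counts. Each table was fitted apart with edgeR 4.0.16 (R 4.3.3): TMM factors, genes filtered at a minimum count of 10 and a total of 15, quasi-likelihood F tests, Benjamini-Hochberg adjustment over all genes tested, called at adjusted p under 0.05 and fold over 1.5. The 3 slice groups shared 1 fit. CPM are counts scaled to the library total over the tested genes times the TMM factor. The 95% intervals are the estimate ± 1.96 SE. Fits were tested on simulated data. *Mir155hg*, untested by edgeR, was compared by exact permutation of CPM.

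The members and the lists of related genes were chosen with earlier results of these data known. Named genes were the members, at most 3 called genes of a list by smallest p in each comparison, protein-coding genes within 50 kb, and the 3 genes of highest r. Alternatives were DESeq2 1.42.0, limma 3.58.1 (voom), other scalings and filters, the replicate number as a block, libraries left out and title codes. Replicate numbers gave no sign of pairing: the median correlation of deviations between same-numbered libraries was 0.0719 in slice microglia, −0.00877 in adult microglia and 0.0259 in brain tissue. In slice microglia these numbers join some libraries of different title codes. Pairing by the running numbers in the slice titles, which set medium, TNF and GM-CSF libraries next to each other, was not tested.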

Additional observations from a re-analysis of the deposited data

Results flagged for a closer look

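Of 38 groups of 4 to 10 libraries examined, 1 held a library apart from the others by Dixon's criterion, and chance gives about 1 such flag in 20 groups. *Mir22hg* stood at 9.78 CPM in medium library 5 of the slice microglia, while the other 8 medium libraries lay between 19.6 and 27.9 CPM. The TNF and the GM-CSF library whose title numbers follow directly on that of this library were the lowest of their own groups as well, at 26.4 CPM in TNF library 7 (the others from 37.2) and 8.67 CPM in GM-CSF library 5 (the others from 12.8). The LPS effect differed between adult microglia and brain tissue by an interaction term for *Mir22hg* (log2 difference 0.96) and for *Snhg12* (0.75), both larger in microglia. The controls differ as well, PBS for microglia and no treatment for brain tissue, and cannot be told apart from tissue.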

How the results depend on the processing

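Of 579 recomputed member values, 561 kept their direction and side of the threshold, 4 weakened, 2 strengthened, 11 reversed (none of them called) and 1 moved. *Mir22hg* with TNF stayed between 0.90 and 1.01, *AI506816* with GM-CSF between 0.68 and 0.81 and in brain tissue between 1.16 and 1.31, *Gas5* with LPS in adult microglia between 1.497 and 1.67 and *Snhg1* between 1.48 and 1.76, called throughout. With codes 2A and 2B only, reversals were *Neat1* with TNF (0.10), with GM-CSF (0.18) and for TNF against GM-CSF (−0.079), *Snhg1* with GM-CSF (−0.14) and for TNF against GM-CSF (0.11), and *Snhg12* for TNF against GM-CSF (−0.49). *Malat1* with TNF reversed with codes 1A and 1B only (0.094). *Neat1* for TNF against GM-CSF also reversed with total counts in place of TMM (−0.12), without TNF library 6 (−0.0074) and with the replicate block (−0.072), and *Mir22hg* in brain tissue without LPS library 4 (0.037, with −0.23 to 0.037 over all libraries left out in turn). The cause was not tested. With the replicate block, *AI506816* for TNF against GM-CSF (−0.57) lost the fold limit and *Snhg12* lost its interaction call (0.74). In slice microglia the block joined some libraries of different title codes. The block changed no other member's call, and under it *Malat1* with GM-CSF was −0.33 (adjusted p 0.0143), under the fold limit. Its counts of genes called were 2415 (TNF), 1256 (GM-CSF), 1826 (TNF against GM-CSF), 3452 (adult LPS), 448 (brain LPS) and 3222 (interaction), beside 2353, 1222, 1833, 3563, 479 and 3289. Without the fold limit the counts were 4476, 2892, 3486, 6703, 1533 and 5136. GM-CSF called 785 with codes 2A and 2B only, and brain LPS called 288 at a minimum count of 50. Leaving out 1 library gave 3373 to 4044 calls in adult microglia, 412 to 543 in brain tissue and 3116 to 3663 for the interaction; *AI506816* in the interaction was 1.43 without untreated brain library 2. Total counts in place of TMM shifted the median of all genes by 0.10 with GM-CSF and −0.17 for TNF against GM-CSF. *Mir155hg* passed the filter on low counts in no table, and *Snhg1* and *Snhg12* had at most 51 and 28 counts per library in slice microglia.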
